A study of Mus musculus with 12 samples.

Results

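Ccl2, Ccl4, Ccl5 and Cxcr6 were followed in T cell RNA from pancreatic tumors of mice. They are 3 chemokines and 1 chemokine receptor, chosen by name, and they made up 4 of the 748 endogenous genes of the panel. All 4 were among the 640 genes tested. The panel held 3 further chemokines, Ccl19, Cxcl9 and Xcl1, and no other chemokine receptor.

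Female C57BL/6 mice carried subcutaneous tumors grown from KPC.Luc, a mouse pancreatic ductal adenocarcinoma line. The mice received 10 µg of peptide under the skin each day and 200 µg of antibody into the peritoneum every 3 days, for 10 days. In Scram+IgG the peptide was scrambled and the antibody an isotype IgG, so these were the controls. ANT008+IgG mice had the scrambled peptide replaced by ANT008, an antagonist of the receptors for vasoactive intestinal peptide, Scram+aPD-1 mice had the IgG replaced by anti-PD-1, and ANT008+aPD-1 mice received both agents. The comparison asks whether T cells within the tumor differ when both pathways are blocked. There were 3 mice per group and 12 mice in all, each measured in 1 lane of the nCounter instrument, which counts barcodes bound to RNA molecules without amplification. The T cells were pulled from dissociated tumor with beads against CD90.2, a surface protein of mouse T cells that other cells can also carry, and by the study's own account the isolates were not pure.

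Chemokines are small secreted proteins that guide cells along a gradient through G protein-coupled receptors. CCL2 binds CCR2 and draws monocytes into inflamed tissue and tumors. Activated CD8 T cells and natural killer cells release CCL4 and CCL5, which draw in further lymphocytes and monocytes. CXCR6 is the receptor for CXCL16 and marks effector and tissue-resident T cells. Ccl2, Ccl4 and Ccl5 lie on the same mouse chromosome, in which many CC chemokine genes are grouped, whereas Cxcr6 lies on another chromosome.

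Each gene was read by 1 probe pair against a target of 100 bases. The targets are shown because chemokines form a family of related genes, and the letters show what was actually counted. In the Ccl4 target the capitals mark the codons of the adjacent pair of cysteines from which CC chemokines take their name.
Ccl2: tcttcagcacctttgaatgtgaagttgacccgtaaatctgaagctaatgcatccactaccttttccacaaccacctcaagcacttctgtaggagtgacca
Ccl4: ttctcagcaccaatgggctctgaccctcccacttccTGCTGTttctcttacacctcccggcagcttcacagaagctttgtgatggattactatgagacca
Ccl5: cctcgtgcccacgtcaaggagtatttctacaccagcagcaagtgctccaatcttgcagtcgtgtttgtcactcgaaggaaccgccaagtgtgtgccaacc
Cxcr6: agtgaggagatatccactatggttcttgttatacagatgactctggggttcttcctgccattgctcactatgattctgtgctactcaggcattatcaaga
The GC content of the targets was 45% for Ccl2, 51% for Ccl4, 54% for Ccl5 and 43% for Cxcr6. The longest run of identical bases that any of the 4 shared with another target of the panel was 13, between Ccl2 and Ranbp2. Between any pair of the 4 targets it was 8.

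The lanes differed widely in depth. The endogenous total ran from 5776 to 1486646 counts, and 2 of the 3 ANT008+aPD-1 lanes, those of mouse 1 and mouse 3, held the lowest totals. Background, the mean plus 2 SD of the 8 negative control probes of a lane, lay between 9.94 and 28.2 counts. Levels below are scaled counts, that is counts divided by a lane size taken from the housekeeping genes Dnajc14, Oaz1 and Ubb. All 4 genes exceeded background in all 12 lanes. A FLAG mark, whose reason is not given in the sources used here, stood on 2 lanes, both of a mouse 1, in Scram+IgG and in ANT008+IgG. Depth, the mark and the group are partly bound together and their part in the results was not tested.

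Ccl2 varied least of the 4 genes. Its scaled counts were 1117, 448 and 715 in Scram+IgG mice 1 to 3 and 1261, 659 and 1038 in ANT008+IgG mice. They were 1636, 900 and 1016 with Scram+aPD-1 and 1045, 1345 and 1023 with ANT008+aPD-1. The highest value was 3.66 times the lowest, and every pair of groups overlapped. Group means ran from 760 ± 337 (SD, n = 3) in Scram+IgG through 986 ± 304 in ANT008+IgG and 1138 ± 180 in ANT008+aPD-1 to 1184 ± 395 in Scram+aPD-1, and no neighbors in this order were separated beyond the spread between mice.

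Ccl4, a chemokine released by activated T cells, had the widest span. Scaled counts were 365, 21.9 and 37.4 in Scram+IgG, and 297, 70.6 and 162 in ANT008+IgG. They were 223, 157 and 131 in Scram+aPD-1 and 541, 519 and 289 in ANT008+aPD-1. The ANT008+aPD-1 mice all lay above the Scram+aPD-1 mice, while Scram+IgG mouse 1 lay inside the ANT008+aPD-1 range and the other Scram+IgG mice were the lowest of all 12. The means were 176 ± 114 in ANT008+IgG, 171 ± 47.6 in Scram+aPD-1 and 450 ± 140 in ANT008+aPD-1, against 141 ± 194 in Scram+IgG. Both the highest and the lowest scaled Ccl4 level rested on counts close to background. The raw count was 15 in ANT008+aPD-1 mouse 1, the highest level of all 12, with an exact 95% Poisson interval of 8.40 to 24.7 that took in the background of 9.94, and 23 in Scram+IgG mouse 2, the lowest level, with an interval of 14.6 to 34.5 around a background of 16.3. These intervals cover counting error only.

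Ccl5, which attracts T cells and monocytes, took between 0.107% and 1.59% of the endogenous counts of a lane. Its scaled counts were 3596, 269 and 307 in Scram+IgG and 1953, 372 and 711 in ANT008+IgG. They were 1302, 836 and 656 in Scram+aPD-1 and 1189, 3032 and 2407 in ANT008+aPD-1. Scram+IgG mouse 1 held the highest Ccl5 level of all 12 mice and the other mice of its group the lowest. The group mean of 1391 ± 1910 in Scram+IgG therefore had an SD larger than itself, beside 1012 ± 833 in ANT008+IgG, 931 ± 333 in Scram+aPD-1 and 2209 ± 937 in ANT008+aPD-1.

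Cxcr6, the receptor, followed the same order of mice within the control group. Scaled counts were 1159, 156 and 164 in Scram+IgG and 790, 258 and 242 in ANT008+IgG. They were 569, 389 and 418 in Scram+aPD-1 and 541, 746 and 902 in ANT008+aPD-1. Means were 493 ± 577 in Scram+IgG, 430 ± 312 in ANT008+IgG, 458 ± 96.5 in Scram+aPD-1 and 730 ± 181 in ANT008+aPD-1, and the groups overlapped in every comparison. In ANT008+aPD-1 mouse 1 the raw Cxcr6 count was 15, again with an interval of 8.40 to 24.7 that reached the background.

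**Figure D1:**
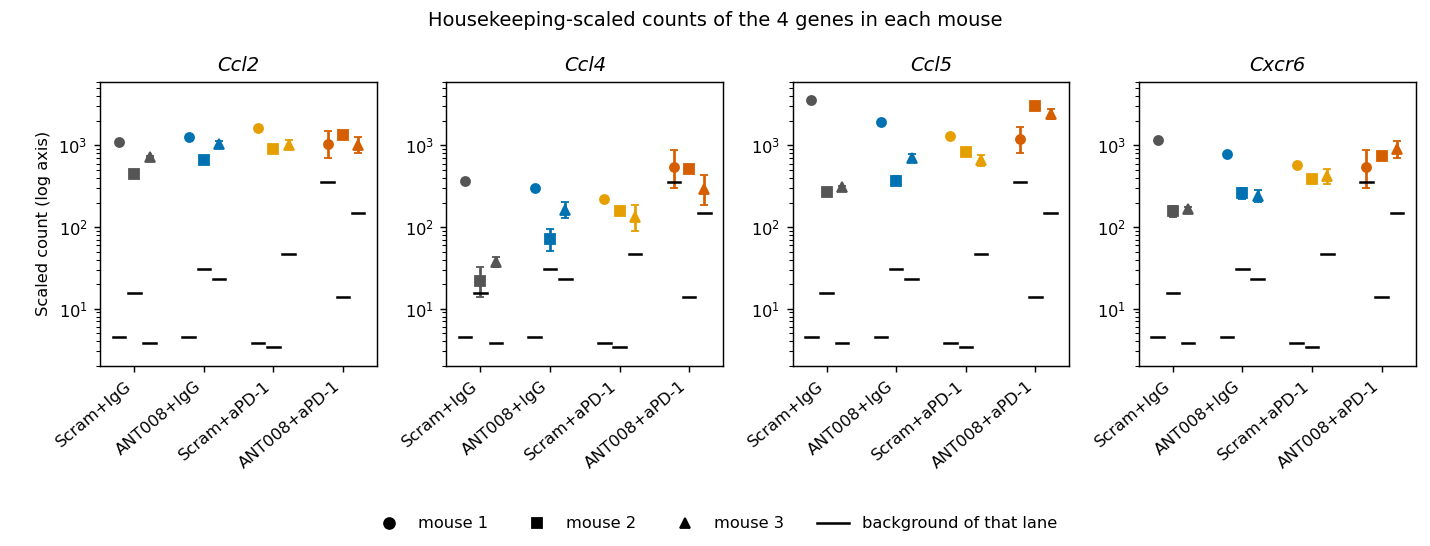
Scaled counts (log axis) of Ccl2, Ccl4, Ccl5 and Cxcr6 in each of the 12 mice, by group, with 95% Poisson intervals and the background of each lane as a black dash. Scram+IgG mouse 1 stands above the other mice of its group for all 4 genes, and the background of ANT008+aPD-1 mouse 1 reaches a scaled value of 358, close to its Ccl4 and Cxcr6 levels of 541.

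In every group except ANT008+aPD-1, mouse 1 had the highest level of all 4 genes. These 3 mice also had the highest summed T cell markers of their groups, at 5071 scaled counts in Scram+IgG, 3371 in ANT008+IgG and 3382 in Scram+aPD-1. Their summed myeloid markers were likewise the highest, at 4096, 3358 and 6307 in the same order. So were their natural killer cell markers, at 1655, 1235 and 715, whereas their fibroblast genes, at 412, 579 and 722, were not. The part of these cell types in the members' levels was not tested. In bulk RNA, fewer cells of a type and less RNA per cell cannot be told apart.

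Blocking both pathways was compared with the control by a quasi-likelihood test in edgeR over all 640 genes. The log2 fold change of ANT008+aPD-1 against Scram+IgG was 0.59 (SE 0.42) for Ccl2, 1.65 (SE 0.89) for Ccl4, 0.68 (SE 0.91) for Ccl5 and 0.58 (SE 0.74) for Cxcr6. None of the 4 passed an FDR below 0.1 in edgeR, where 0 of 640 genes (0%) did so, and none had an unadjusted p below 0.05, as 82 genes (12.8%) had. All 4 estimates were above 0, as were those of 56.7% of all genes, and their median of 0.63 stood beside 0.12 over all genes. Ccl4 ranked 58th of 640 by log2 fold change, and the other 3 ranked between 188th and 208th. DESeq2 and limma on log2 values also called none of the 4, where DESeq2 called 28 of the 640 genes higher (4.38%) and limma 0 (0%).

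The result turned on Scram+IgG mouse 1. Without it, edgeR gave log2 fold changes of 3.88 for Ccl4 (SE 0.65, FDR 0.0210), 2.95 for Ccl5 (SE 0.74, FDR 0.0398) and 2.20 for Cxcr6 (SE 0.57, FDR 0.0428), while Ccl2 at 0.97 (SE 0.46) had an FDR of 0.233. The background in that fit was 68 of 640 genes called higher (10.6%). Weighting the lanes by their noise with voom called the same 3 genes, at 3.24, 2.69 and 2.21, with 135 of 640 genes (21.1%) called higher, and so did leaving out both FLAG lanes, with 67 genes (10.5%). Leaving out Scram+IgG mouse 2 or mouse 3 brought Ccl4 to 1.15 and 1.20 and Ccl5 to 0.19 and 0.20, with no member and 0 of 640 genes (0%) called higher. With CD3 gene scaling and without Scram+IgG mouse 1, an alternative added after seeing the data, Ccl4 was called higher at 1.31, as the 1 gene of 640 (0.156%) in that direction, and Ccl2 was called lower at -1.63 among 457 genes (71.4%). The Ccl4 counts in this call were 15 and 24 in ANT008+aPD-1 mice 1 and 3, over backgrounds of 9.94 and 12.4. Without the ANT008+aPD-1 lanes of lowest depth, mice 1 and 3, Ccl4 stood at 1.87 (SE 1.24), a value that rests on 1 ANT008+aPD-1 mouse, assumed to vary like the mice of the other groups.

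**Figure D2:**
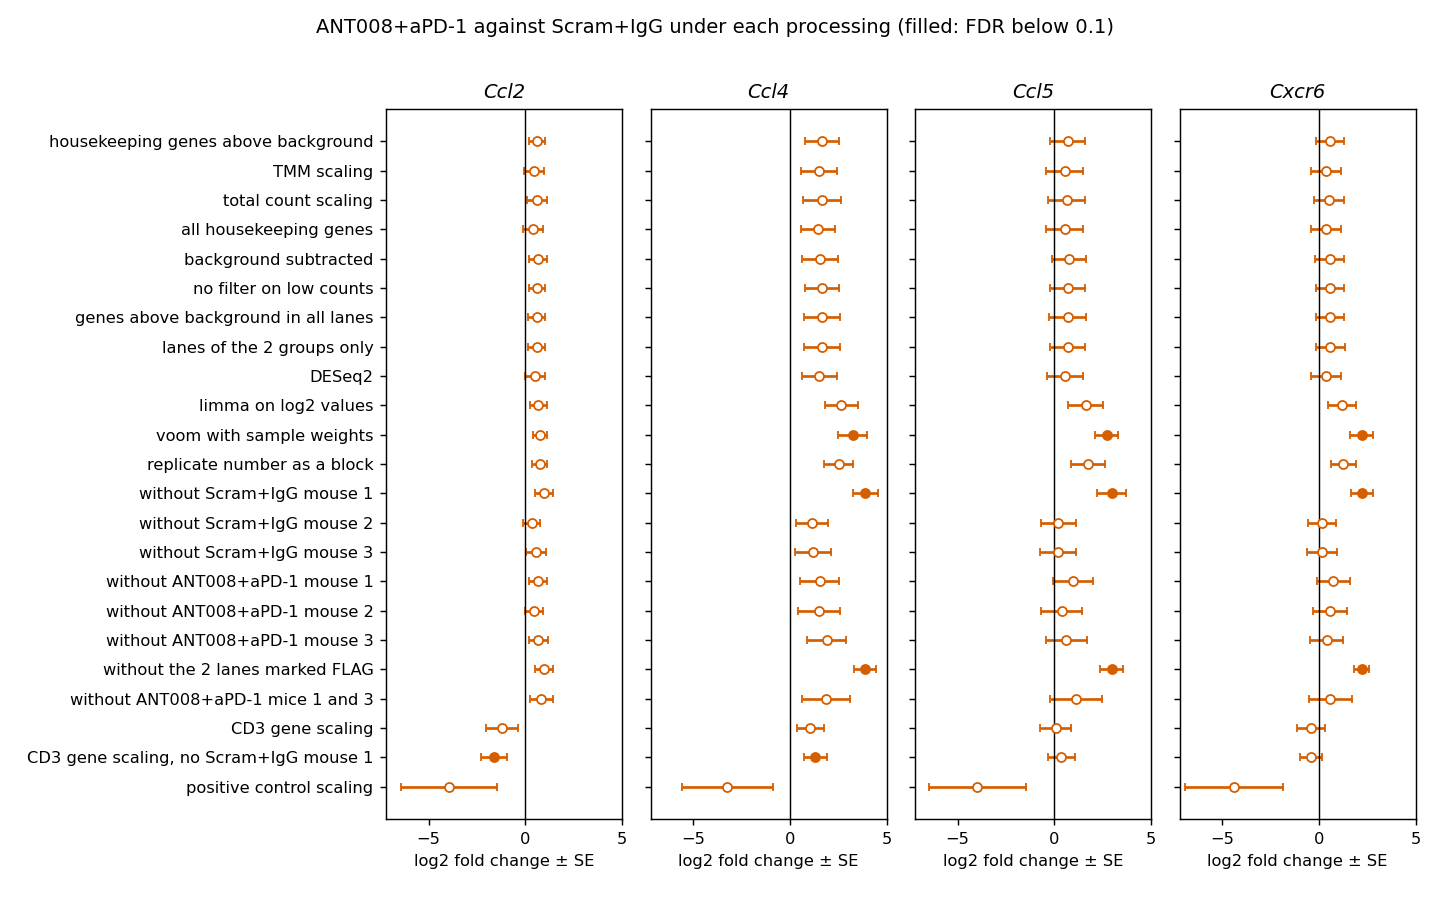
Log2 fold change ± SE of ANT008+aPD-1 against Scram+IgG for the 4 genes under the processing of the report (top) and 22 alternatives, with filled points where the FDR was below 0.1. Ccl4, Ccl5 and Cxcr6 move to the right and become filled with Scram+IgG mouse 1 left out, with both FLAG lanes left out and with voom, and all 4 genes fall below 0 with positive control scaling.

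For each agent alone, none of the 4 genes was called by edgeR, DESeq2 or limma on log2 values, and DESeq2 and limma called 0 of 640 genes higher (0%). For ANT008+IgG against Scram+IgG, no gene of 640 (0%) had an FDR below 0.1 in edgeR, 3 genes (0.469%) and no member had an unadjusted p below 0.05, and voom called Ccl4 among 37 genes (5.78%). For Scram+aPD-1 against Scram+IgG, edgeR again called 0 of 640 (0%), 7 genes (1.09%) and no member had an unadjusted p below 0.05, and voom called all 4 members among 93 genes (14.5%). Both comparisons used the same control mice. The sign of the members' change was unstable, since 19 of 88 estimates for ANT008 alone and 20 of 88 for anti-PD-1 alone had the opposite sign under an alternative. The difference between the effect of both agents and the sum of each alone, tested as an interaction, was called for none of the 4 and for 0 of 640 genes (0%) in edgeR. At an unadjusted p below 0.05 it held for 9 genes (1.41%), with no member among them, and DESeq2, limma and voom called none of the 4.

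Against each single agent, the combination gave larger estimates for Ccl4 and Ccl5 than for Ccl2, though none passed the test. Relative to ANT008+IgG the log2 fold change was 0.21 (SE 0.42) for Ccl2, 1.33 (SE 0.89) for Ccl4, 1.14 (SE 0.92) for Ccl5 and 0.77 (SE 0.74) for Cxcr6. The FDRs in edgeR lay between 0.615 and 0.887, 0 of 640 genes (0%) were called, and 50 genes (7.81%) but no member had an unadjusted p below 0.05. Without ANT008+IgG mouse 1, Ccl5 stood at 2.04 and Cxcr6 at 1.56, without mouse 2 of that group at 0.74 and 0.51, and without its mouse 3 Cxcr6 stood at 0.49. Relative to Scram+aPD-1 the values were -0.05 (SE 0.42), 1.38 (SE 0.89), 1.26 (SE 0.92) and 0.68 (SE 0.74) in the same order. Here too edgeR called 0 of 640 genes (0%), and 40 genes (6.25%) but no member had an unadjusted p below 0.05. No alternative called a member in either comparison, where DESeq2 called 5 of 640 genes higher (0.781%) in each, voom 5 (0.781%) in the former and 0 (0%) in the latter, and limma 0 (0%) in both. Leaving out ANT008+aPD-1 mouse 2, edgeR called 26 of 640 genes higher (4.06%) in the former and 33 (5.16%) in the latter. Among the members, separate groups were seen for Ccl4 alone, in the comparison with Scram+aPD-1 (exact permutation p = 0.1, two-sided, the smallest that 3 against 3 mice allows), and 29 of 640 genes (4.53%) were likewise higher without overlap.

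A ratio within a lane needs no lane size, so each gene was also set against the geometric mean of Cd3d and Cd3g, chains of the T cell receptor complex. Cd3e was left out because its count of 8 in ANT008+aPD-1 mouse 1 did not exceed background. In that lane Cd3d and Cd3g held only 18 and 24 counts over a background of 9.94, so every CD3 ratio of this mouse rests on low counts. The scaled level of the pair was 929, 124 and 118 in Scram+IgG, 589, 211 and 290 in ANT008+IgG, 503, 285 and 273 in Scram+aPD-1, and 749, 645 and 863 in ANT008+aPD-1. Like Ccl5 and Cxcr6, it was high in Scram+IgG mouse 1 and lowest in the other mice of that group.

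Relative to the CD3 genes, most of the variation of Ccl4, Ccl5 and Cxcr6 between mice was absent. Over the 12 mice the SD on the log2 scale was 1.44 for the scaled Ccl4 level and 0.59 for its CD3 ratio. The corresponding values were 1.28 and 0.44 for Ccl5 and 0.96 and 0.31 for Cxcr6. Ccl2 went the other way, with 0.50 for the level and 0.74 for the ratio. This is a description of 12 lanes in which the gene and the CD3 genes share the same RNA.

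The log2 ratio of Cxcr6 to the CD3 genes was 0.32, 0.33 and 0.48 in Scram+IgG and -0.47, 0.21 and 0.06 in ANT008+aPD-1. The groups did not overlap, and the difference of -0.44 had an exact permutation p of 0.1. Of 140 genes above background in all lanes, 2 (1.43%), Cxcr6 and Lck, were lower relative to CD3 without overlap, and none (0%) was higher. The margin between the nearest mice was small, and with Ptprc, the pan-leukocyte gene for CD45, as the denominator the Cxcr6 difference was 0.30 with overlap (exact permutation p = 0.5). Against Cd3e alone it was -0.16 (exact permutation p = 0.8), and without ANT008+aPD-1 mouse 1, where the Cxcr6 count was 15, it was -0.24 (exact permutation p = 0.1). With 1 mouse left out it ran from -0.58 to -0.24 (exact permutation p of 0.1 to 0.2). After background subtraction it was -0.51 (exact permutation p = 0.1).

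The log2 ratio of Ccl4 to the CD3 genes was -1.35, -2.50 and -1.65 in Scram+IgG and -0.47, -0.31 and -1.58 in ANT008+aPD-1. Here the difference was 1.05 and the groups overlapped (exact permutation p = 0.2), and against Ptprc it was 1.79 (exact permutation p = 0.2). With 1 mouse left out it was 0.71 to 1.44 (exact permutation p of 0.1 to 0.4). Without Scram+IgG mouse 1 it was 1.29 (exact permutation p = 0.2). In Scram+aPD-1 the ratio was -1.17, -0.86 and -1.06, above all 3 controls by a mean of 0.81 (exact permutation p = 0.1), and 2 of 140 genes (1.43%), Ccl4 and Ctla4, were higher without overlap in that comparison. Ccl5 did not separate the groups, since ANT008+aPD-1 and Scram+IgG differed by -0.02 in its ratio (exact permutation p = 1).

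Ccl2 relative to the CD3 genes was 0.27, 1.85 and 2.60 in Scram+IgG and 0.48, 1.06 and 0.24 in ANT008+aPD-1, a difference of -0.98 with overlap (exact permutation p = 0.3). This value moved to -1.63 without Scram+IgG mouse 1, -0.46 without Scram+IgG mouse 3 and -0.23 against Ptprc. It lay lower in ANT008+aPD-1 than in ANT008+IgG, by 0.93, and than in Scram+aPD-1, by 1.16, without overlap in either case (exact permutation p = 0.1 for each). In these comparisons 42 (30%) and 82 (58.6%) of the 140 genes were also lower relative to CD3 without overlap, so Ccl2 shared this with much of the panel.

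**Figure D3:**
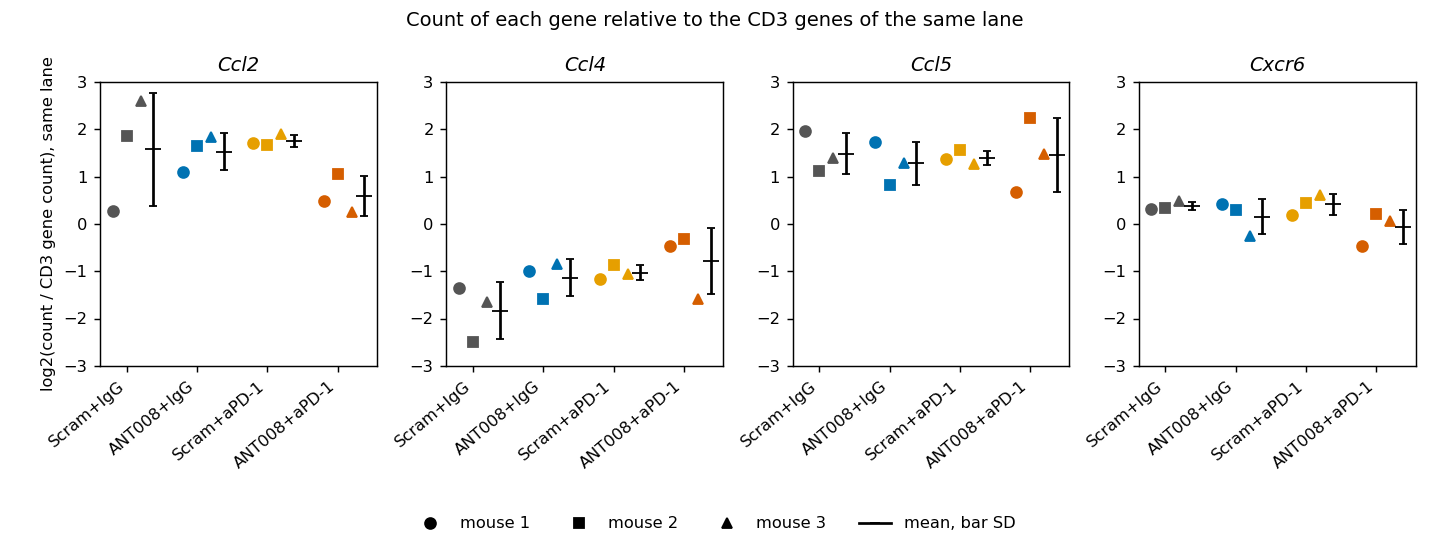
Log2 ratio of the count of each gene to the geometric mean of Cd3d and Cd3g in the same lane, for each mouse by group, with the mean and SD of 3 mice in black. Cxcr6 keeps within -0.47 to 0.62 over all 12 mice, and Ccl2 is spread from 0.27 to 2.60 within Scram+IgG alone. Ccl4 spans -2.50 to -0.31 and has its lowest group mean in Scram+IgG, which overlaps with ANT008+IgG and ANT008+aPD-1.

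The 4 genes varied together between mice. Over the 12 mice, Pearson's r of the log2 scaled counts was 0.96 for Ccl5 and Cxcr6 (Spearman's rho 0.94), 0.90 for Ccl4 and Ccl5 (rho 0.87) and 0.88 for Ccl4 and Cxcr6 (rho 0.80). Ccl2 was less close, with r of 0.84 to Ccl4 (rho 0.82), 0.78 to Ccl5 (rho 0.81) and 0.75 to Cxcr6 (rho 0.73). Permutation p-values adjusted over the 6 pairs were between 6e-05, the smallest they can give, and 0.00322 for r, and between 0.000120 and 0.0100 for rho. Leaving out the 2 mice farthest from the median left r between 0.75 and 0.94, and deviations from the group means correlated at 0.75 to 0.96. Without the 2 farthest mice, Scram+IgG mouse 1 among them for every pair, these deviations correlated at 0.53 to 0.87. All values in a lane are divided by the same lane size, and its error moves the genes together. With CD3 gene scaling r was between -0.37 and 0.42 and no pair passed (adjusted permutation p of 0.470 or more).

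Ratios between the members do not use a lane size. The Ccl5 to Cxcr6 ratio was again the most constant, with a highest value 2.82 times its lowest over the 12 mice, and the Ccl2 to Ccl4 ratio the least, at 10.6 times. By this range, which rests on the extreme lanes of each pair, Ccl2 and Cxcr6, the pair with the lowest r, came second, at 4.51 times. The order depended on the measure. By the SD of the log2 ratio, Ccl4 and Ccl5 at 0.64 came before Ccl2 and Cxcr6 at 0.67. The ratio of Ccl4 to Cxcr6 was 0.315, 0.140 and 0.227 in Scram+IgG and 1.00, 0.696 and 0.320 in ANT008+aPD-1. It was higher in the combination without overlap (exact permutation p = 0.1), as 1308 of 10011 pairs of genes (13.1%) were separated in one direction or the other. The margin between the nearest mice, 0.320 and 0.315, was small, and the former rests on 24 Ccl4 counts over a background of 12.4. The value of 1.00, in ANT008+aPD-1 mouse 1, was 15 counts over 15, with a background of 9.94. In Scram+aPD-1 the ratio of Ccl4 to Cxcr6 was 0.393, 0.405 and 0.314, and in ANT008+IgG 0.376, 0.273 and 0.669.

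**Figure D4:**
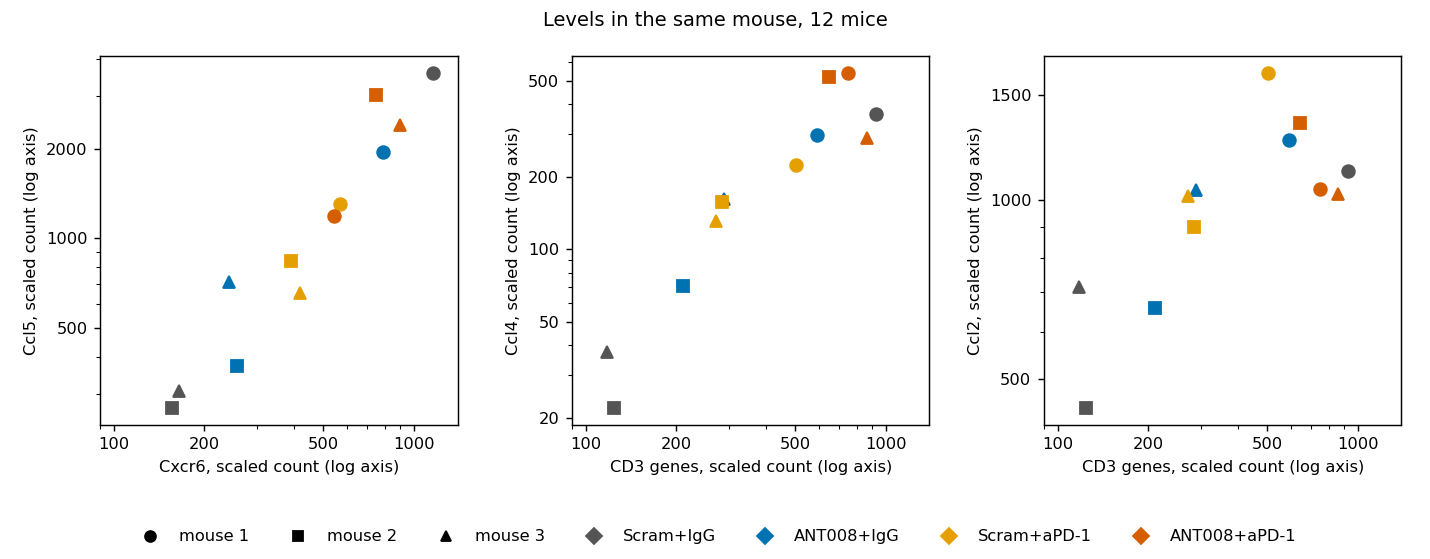
Scaled counts in the same mouse on log axes, with Ccl5 against Cxcr6, Ccl4 against the CD3 genes and Ccl2 against the CD3 genes, colored by group. Ccl5 and Cxcr6 lie along 1 band (r = 0.96), whereas Ccl2 ranges only from 448 to 1636 while the CD3 genes range from 118 to 929.

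Among the 142 genes above background in every lane, those whose log2 level over the 12 lanes was most like Ccl5 were Lck, the kinase of T cell receptor signaling (r = 0.97), Cxcr6 (r = 0.96) and Cd3g (r = 0.94). For Cxcr6 they were Ctsw, a protease of cytotoxic lymphocytes (r = 0.97), Lck (r = 0.96) and Ccl5. Closest to Ccl4 were the inhibitory receptor gene Ctla4 (r = 0.95), Cd3g (r = 0.94) and Klrk1, which encodes the activating receptor NKG2D (r = 0.94). The genes nearest to Ccl2 were Gzmb, a granule protease (r = 0.91), Taldo1, an enzyme of the pentose phosphate pathway (r = 0.91), and H2-DMa, a gene of antigen presentation on MHC class II (r = 0.87). With CD3 gene scaling, r to Ccl2 was 0.97 for Taldo1, 0.95 for H2-DMa and 0.25 for Gzmb.

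The members' levels also moved with markers of T cells and of other cells. The T cell list had 10 of 13 markers on the panel, all above background in every lane but that of ANT008+aPD-1 mouse 1, where 6 were. Their sum ran from 878 to 5071 scaled counts in Scram+IgG, 1689 to 3371 in ANT008+IgG, 1809 to 3382 in Scram+aPD-1 and 3755 to 5427 in ANT008+aPD-1. With the background subtracted, the ranges in the same order were 817 to 5050, 1566 to 3351, 1792 to 3360 and 2883 to 4660. Over the 12 mice the sum correlated with Cxcr6 (r = 0.95), Ccl4 (r = 0.91), Ccl5 (r = 0.90) and Ccl2 (r = 0.75), with adjusted permutation p between 0.000160 and 0.00720. Spearman's rho was 0.92, 0.84, 0.88 and 0.65 in the same order, with adjusted permutation p between 0.000560 and 0.0279. Without the 2 mice farthest from the median r was 0.91, 0.79, 0.83 and 0.49. The sum and the members are divided by the same lane size, whose error moves them together, and these correlations include differences between the groups.

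The myeloid list had 8 of 22 markers on the panel, among them Cd14, Itgam and Cd68, and the sum was 980 to 4096 in Scram+IgG, 1052 to 3358 in ANT008+IgG, 1733 to 6307 in Scram+aPD-1 and 4613 to 7725 in ANT008+aPD-1. It correlated with the members at r between 0.66 for Ccl2 and 0.80 for Cxcr6 (rho 0.64 to 0.78), with adjusted permutation p between 0.00516 and 0.0168 for r and between 0.00898 and 0.0279 for rho. Without the 2 farthest mice r was between 0.62 and 0.69. The shared lane size and the differences between the groups enter these correlations as well. After subtraction of the background the sum still reached 3311 to 7111 in ANT008+aPD-1 against 916 to 4080 in Scram+IgG. Monocytes and macrophages are a known source of Ccl2, and the part of these cells in the members' levels was not tested.

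Markers of other cell types were also present. The 3 markers of natural killer cells, Ncr1, Klrd1 and Klrk1, summed to 161 to 1655 in Scram+IgG and 902 to 1334 in ANT008+aPD-1. With the background subtracted, they summed to 137 to 1649 and 672 to 1172. The part of natural killer cells in the levels of Ccl4 and Ccl5, which these cells also make, was not tested. Of the 3 B cell markers, at most 2 exceeded background in any lane and none did so in ANT008+aPD-1. The 4 fibroblast genes summed to 412 to 1137 in Scram+IgG and 554 to 757 in ANT008+aPD-1, and with the background subtracted to 404 to 1128 and 225 to 726. In ANT008+aPD-1 mice 1 to 3, 0, 3 and 1 of the fibroblast genes exceeded background. Flt1, the 1 endothelial marker, was at 45.4 to 131 in Scram+IgG and 24.1 to 37.1 in ANT008+aPD-1, where it exceeded background in mouse 2 alone. No epithelial marker was on the panel.

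Genes that act below chemokine receptors lay on both sides of 0 in the combination. Of the 28 such genes tested, 11 had a log2 fold change above 0 in ANT008+aPD-1 against Scram+IgG, with a median of -0.17 beside 0.12 over all genes. None passed an FDR below 0.1 in edgeR in either direction, and 1 had an unadjusted p below 0.05, as 12.8% of all genes had. The lowest was Ptk2, which encodes focal adhesion kinase, at -0.99 (SE 0.75). Without Scram+IgG mouse 1 the median was -0.16 and 1 of the 28 was called higher, beside 10.6% of all genes. Voom called 3 of the 28 higher (21.1% of all genes), DESeq2 none (4.38%) and limma on log2 values none (0%).

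Effector lymphocyte genes leaned the same way as the members, and so did markers of several cell types. Of 14 tested, a list that also holds Xcl1 and the T cell markers Cd8a and Cd8b1, 13 had a log2 fold change above 0, with a median of 1.35 beside 0.12 over all genes. The myeloid markers had a median of 1.34 with 8 of 8 above 0, and the T cell markers 0.85 with 9 of 10. Natural killer cell markers had 0.72 with 3 of 3, fibroblast genes 0.34 with 2 of 4, and Flt1 stood at -1.35. None of the 14 effector genes passed an FDR below 0.1 in edgeR, where 4 had an unadjusted p below 0.05, as 12.8% of all genes had. The highest were Il2, a T cell growth factor, at 2.93 (SE 0.92) and Fasl, a death ligand of killer cells, at 1.80 (SE 0.61). Il2 exceeded background in only 7 of 12 lanes. The lowest were Cd8a at -0.31 (SE 0.98) and Ctsw at 0.59 (SE 0.59). Without Scram+IgG mouse 1, 9 of the 14 were called higher, beside 10.6% of all genes. Voom called 12 (21.1% of all genes), DESeq2 1 (4.38%) and limma on log2 values none (0%). With CD3 gene scaling, 6 of the 14 lay above 0 with a median of -0.16, where the median of all genes was -1.96. Without ANT008+aPD-1 mice 1 and 3, which leaves 1 mouse in that group, 13 of the 14 lay above 0. Their median was then 0.75, beside -0.27 over all genes.

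**Figure D5:**
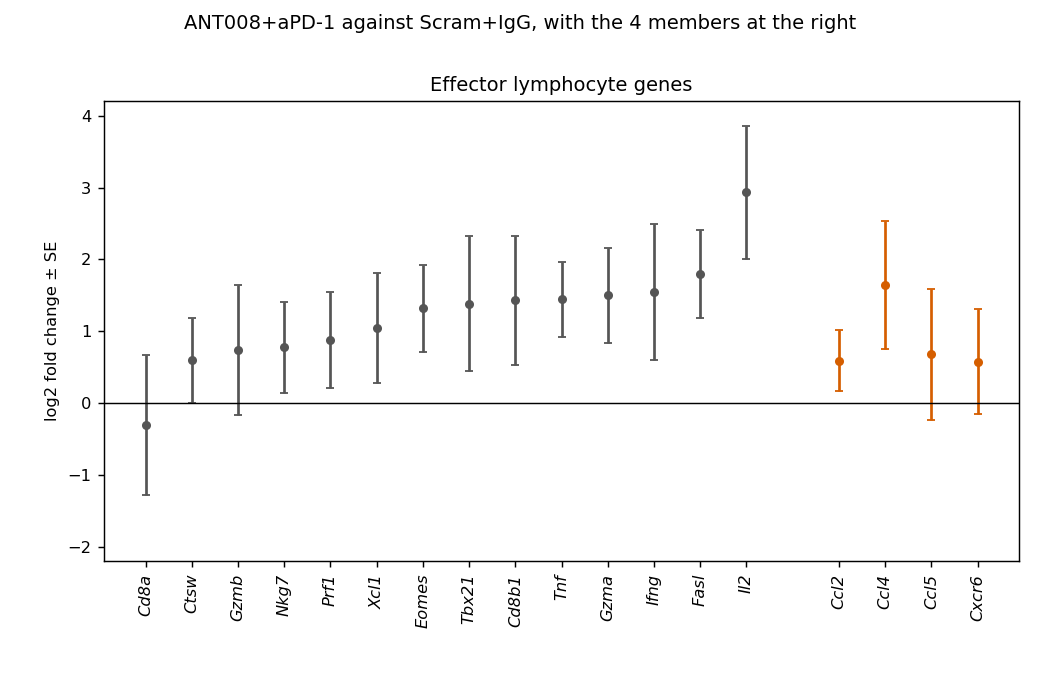
Log2 fold change ± SE of ANT008+aPD-1 against Scram+IgG for 14 effector lymphocyte genes in gray, beside the 4 members in orange. Of the effector genes 13 lie above 0, as do all 4 members, and the SE bars reach 0.98 log2 units.

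The other chemokines of the panel behaved unlike each other. Xcl1, which attracts cross-presenting dendritic cells, had means of 195 ± 223 scaled counts in Scram+IgG, 323 ± 213 in ANT008+IgG, 155 ± 59.1 in Scram+aPD-1 and 413 ± 81.8 in ANT008+aPD-1 (SD, n = 3 each). Its log2 fold change was 1.04 (SE 0.77) against Scram+IgG and 1.37 (SE 0.78) against Scram+aPD-1, and in the latter comparison its groups did not overlap, as for Ccl4. Relative to the CD3 genes, Xcl1 was lower in Scram+aPD-1 than in Scram+IgG without overlap, the 1 gene of 140 (0.714%) that was. Cxcl9, an interferon-induced ligand of CXCR3, had its highest mean in Scram+aPD-1, at 1950 ± 860, beside 1024 ± 419 in ANT008+aPD-1, 1124 ± 486 in ANT008+IgG and 1071 ± 602 in Scram+IgG. Its log2 fold change in the combination against Scram+IgG was -0.04 (SE 0.58). Ccl19 exceeded background in 5 of 12 lanes and in no ANT008+aPD-1 lane, so its level there could not be measured at this depth. None of the 3 passed an FDR below 0.1 or an unadjusted p below 0.05 in edgeR in any of the comparisons. Against Scram+IgG, Xcl1 was called higher in the combination without Scram+IgG mouse 1, at 2.59 (edgeR FDR 0.0347), as were 10.6% of all genes. Voom, which called 21.1% of all genes higher, called Xcl1 at 2.41 and Ccl19 at 1.52. DESeq2 (4.38% of all genes) and limma on log2 values (0%) called none of the 3.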

How the data were processed

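The authors deposited raw nCounter counts, whole numbers per probe and lane with no background subtraction, scaling or pooling, and the panel definition from which the probe targets were read. The methods name the panel and kits. A normalization and a single-gene test for these counts are not given in the sources used here. Groups and mouse numbers came from the sample titles, and each sample is 1 mouse.

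Background was the mean plus 2 SD of 8 negative probes. Counts were divided by the geometric mean of Dnajc14, Oaz1 and Ubb, which were 3 of 20 housekeeping genes and the ones detected above background in all 12 lanes. A gene was kept if it exceeded background in 3 or more lanes, which left 640, and edgeR 4.0.16 (quasi-likelihood, R 4.3.3) was run with 4 groups in 1 fit, Benjamini-Hochberg adjustment over all of them and an FDR threshold of 0.1. The fit was tested on simulated data. Single values used two-sided exact permutation tests, and correlations of log2(scaled count + 1) used 100000 permutations (scipy 1.17.1, Python 3.11.15). Alternatives were DESeq2 1.42.0, limma 3.58.1 with and without voom weights, other scalings and filters, subtraction of background, the replicate number as a block, and lanes left out. CD3 gene scaling together with leaving out Scram+IgG mouse 1 was added after seeing the data.

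The members and gene lists were chosen with earlier results of these data known. Genes named are the members, all other chemokine or chemokine receptor genes of the panel, the 3 genes most like each member, and the 2 highest and 2 lowest of the signaling and effector lists, of which some signaling genes are not reported here. Lck and Ctla4 in the comparison of CD3 ratios, Xcl1 in the same ratios, Ranbp2, and the markers listed by name were named after their values were seen. Gene symbols were matched to RefSeq (GRCm38.p6) for names only, as the panel names no build.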

Additional observations from a re-analysis of the deposited data

How the results depend on the processing

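For ANT008+aPD-1 against Scram+IgG, where no member was called, 3 were called with voom (21.1% of all genes called higher) and without both FLAG lanes (10.5%). CD3 gene scaling without Scram+IgG mouse 1 (added after seeing the data) called 2, Ccl4 higher (0.156% of all genes) and Ccl2 lower (71.4%). Between 0 and 3 were called with 1 mouse left out, the 3 being Ccl4, Ccl5 and Cxcr6 without Scram+IgG mouse 1 (10.6%). Without ANT008+aPD-1 mouse 2, 66 of 640 genes (10.3%) but no member were called higher. With voom, 1 was called for ANT008 alone (5.78% of all genes) and 4 for anti-PD-1 alone (14.5%). For ANT008+aPD-1 against Scram+IgG, positive control scaling moved the median of all genes to -4.58. It gave log2 fold changes of -3.94, -3.23, -3.98 and -4.39 for Ccl2, Ccl4, Ccl5 and Cxcr6. Against ANT008+IgG it gave -3.75, -3.02, -3.19 and -3.87, and against Scram+aPD-1 it gave -2.24, -2.22 and -3.03 for Ccl4, Ccl5 and Cxcr6. CD3 gene scaling, with a median of -1.96 over all genes against Scram+IgG, gave -1.22 for Ccl2 and -0.41 for Cxcr6, which were -1.63 and -0.43 without Scram+IgG mouse 1. It gave -0.92 for Ccl2 and -0.21 for Cxcr6 against ANT008+IgG, and -0.45 for Cxcr6 against Scram+aPD-1. For Ccl2, whose differences from both single agents were near 0, voom gave -0.0172 against ANT008+IgG and leaving out 1 mouse gave -0.00828 to 0.43. Against Scram+aPD-1 Ccl2 was 0.15 with total count scaling, 0.18 without the 2 lowest lanes, and -0.22 to 0.25 with 1 mouse left out. The cause of these turns was not tested beyond the shift of all genes.

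The Ccl5 ratio difference was 0.26 against Cd3e alone, 0.72 against Ptprc, 0.0355 after background subtraction and -0.41 to 0.37 with 1 mouse left out, and that of Cxcr6 was 0.30 against Ptprc. With CD3 gene scaling r was -0.28 for Ccl2 and Ccl4, -0.22 for Ccl2 and Ccl5, 0.42 for Ccl2 and Cxcr6, 0.26 for Ccl4 and Ccl5, -0.37 for Ccl4 and Cxcr6 and 0.37 for Ccl5 and Cxcr6.

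Mouse numbers did not pair the samples throughout. Lanes of the same number correlated at -0.69 to 0.90, above 0.1 in 8 of 18 pairs, and 3 of 12 lanes correlated best with their own number. Outside ANT008+aPD-1, the mouse 1 lanes of the groups correlated with each other at 0.82 to 0.90, and with that of ANT008+aPD-1 at -0.13 to -0.04. With the replicate number as a block, 0 members were called in every comparison, Ccl4 stood at 2.51 (edgeR FDR 0.150), Ccl5 at 1.74 and Cxcr6 at 1.26 against Scram+IgG, Ccl5 at 1.77 and Cxcr6 at 1.20 against ANT008+IgG, and Ccl2 at 0.0587 against Scram+aPD-1. Depth limited Ccl4 and Cxcr6 most, since a lane size from 3 genes and counts of 15 set their level in ANT008+aPD-1 mouse 1.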
